A study of Mus musculus with 4 samples.

Results

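Bmi1 and 9 genes that encode its paralogues and partners in Polycomb repressive complex 1 (PRC1) were followed through 4 single-cell libraries of mouse intestinal epithelium. The 10 genes, Bmi1, Pcgf1, Pcgf2, Pcgf3, Pcgf5, Pcgf6, Ring1, Rnf2, Cbx2 and Cbx7, were taken by symbol, and all 10 were present among the 31054 features of every matrix. The mice carried the Bmi1-GFP allele, a knock-in that places green fluorescent protein under the Bmi1 locus, and the matrices hold a separate eGFP row for its transcript. There was 1 library each at embryonic day 12.5 (E12.5), at embryonic day 17.5 (E17.5), in adults, and in irradiated adults. All 4 groups had this genotype, and the 2 adult groups differed by irradiation. Zygosity, age of the adults, number of animals, sorting gate, and dose and timing of irradiation are not in the labels. Per the series' design text, cells were sorted as Bmi1-expressing, so the presence of Bmi1 RNA is not itself a finding. With 1 library per group there was no replicate and no test between groups. The 95% intervals below are exact Poisson (levels, ratios) or Clopper-Pearson (shares) intervals and cover counting error only.

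PRC1 is a ubiquitin ligase that marks histone H2A at silenced genes and helps keep them off. Each complex is built on 1 of the RING subunits Ring1 (RING1A) or Rnf2 (RING1B) paired with 1 PCGF protein. Bmi1 (PCGF4) and Pcgf2 (MEL18) belong mainly to canonical complexes, whose CBX subunit reads the H3K27me3 mark left by Polycomb repressive complex 2. Pcgf1, Pcgf3, Pcgf5 and Pcgf6 form variant complexes that carry RYBP or YAF2 in place of CBX. In the intestine, Bmi1 reporters have been used to mark slowly cycling cells, and Bmi1-GFP cells of the adult crypt have been described as rich in enteroendocrine cells.

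The stretch upstream of the transcript start is shown for 3 members: Bmi1, whose locus drives the reporter, and Pcgf6 and Rnf2, the members with the highest levels at E12.5. Each line gives the 250 bases before the RefSeq start on the coding strand (GRCm38.p6), with any CACGTG in capitals. CACGTG is the E-box bound by MAX dimers, and MAX and MGA are partners of PCGF6.
Bmi1: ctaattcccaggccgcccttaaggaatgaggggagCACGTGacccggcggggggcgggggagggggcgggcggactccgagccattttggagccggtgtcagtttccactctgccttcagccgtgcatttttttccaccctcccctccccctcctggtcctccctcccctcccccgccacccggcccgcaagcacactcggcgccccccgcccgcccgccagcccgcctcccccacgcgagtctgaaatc
Pcgf6: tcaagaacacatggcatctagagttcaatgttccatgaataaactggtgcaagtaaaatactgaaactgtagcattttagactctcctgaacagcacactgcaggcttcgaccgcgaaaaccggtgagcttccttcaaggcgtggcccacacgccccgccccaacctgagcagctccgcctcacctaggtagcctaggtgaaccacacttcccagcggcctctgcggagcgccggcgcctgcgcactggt
Rnf2: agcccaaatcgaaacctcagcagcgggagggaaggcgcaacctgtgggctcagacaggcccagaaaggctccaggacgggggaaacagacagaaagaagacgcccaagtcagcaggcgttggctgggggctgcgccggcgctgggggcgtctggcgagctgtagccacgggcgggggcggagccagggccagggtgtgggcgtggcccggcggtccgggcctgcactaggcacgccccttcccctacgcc
The Bmi1 window is chr2:18676768-18677017 on the plus strand and holds 1 CACGTG, 215 to 210 bases before the start. The Pcgf6 window (chr19:47050907-47051156, minus strand) and the Rnf2 window (chr1:151500992-151501241, minus strand) hold none. CACGTG was present in the same window of 6.02% of 32851 RefSeq promoter entries. The E2F-type motif GCGGGAA, searched on both strands, was in none of these 3 windows and in 3.82% of all entries. The windows hold 21 CpG dinucleotides (Bmi1), 14 (Pcgf6) and 20 (Rnf2), against a median of 6 over all entries. RefSeq entries were matched for 8 of the 10 members, and entries for Pcgf1 and Cbx2 were not used here. In the GENCODE annotation of GRCm38, Bmi1 lies on chromosome 2 from 18677018 to 18686629.

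Cells with at least 500 genes and at most 20% mitochondrial UMIs (unique molecular identifiers, 1 per captured RNA molecule) were kept. After removal of putative doublets and, at E17.5, of clusters named as cells outside the gut epithelium, 4050 cells remained at E12.5, 3476 at E17.5, 3597 in adults and 3031 in irradiated adults, with 29750596 to 82301354 UMIs per library. The label of intestinal epithelium held only in part at E17.5, where 533 cells had pancreatic acinar markers, 140 islet markers, 119 mesenchymal and 119 smooth muscle markers. These cells were left out of the epithelial values. At E12.5 no cluster was removed, and its 848 unnamed cells include 53 in a cluster with Acta2, Col3a1 and Col1a1 among its leading genes and 140 in one led by Spp1 and Cpa1. Without the unnamed cells Bmi1 at E12.5 was the same to 3 digits (15.8 CPM), and Cbx2 was 30.9 in place of 30.4. The E17.5 cells without a lineage still include 150 and 120 cells in clusters led by Spp1 together with Bicc1. Median depth was 18098, 11641, 3606 and 8547 UMIs per cell in the order E12.5, E17.5, adult, irradiated adult, and the median mitochondrial share was highest in the adult at 9.79%, against 3.69% to 5.06% in the others. Between 0 and 6 cell barcodes were shared by any pair of libraries. Clusters were named from marker lists. The adult and irradiated libraries were mostly enteroendocrine-like (2224 and 2071 cells), E17.5 held 1363 such cells, and E12.5 had no cluster of that name. Levels are UMIs summed over cells per 1000000 UMIs of the same cells (CPM). A 3' count carries no gene length term, but genes may differ in capture. Shares of UMIs within a family carry the same differences. A ranking of genes below is thus a ranking by captured UMIs.

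By summed CPM in epithelial cells, Pcgf6, Rnf2 and Cbx2 were highest at E12.5 of the 4 libraries. From E12.5 to E17.5, 3 members were at least 2-fold lower (log2 ratio of CPM + 1 of -1 or less, counting only genes that reached 10 UMIs in either library) and none was as much higher. Over all 16731 genes tested, 14.6% were lower by this rule and 13.1% higher. The members' median log2 ratio was -0.516, against -0.152 over all genes.

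**Figure D1:**
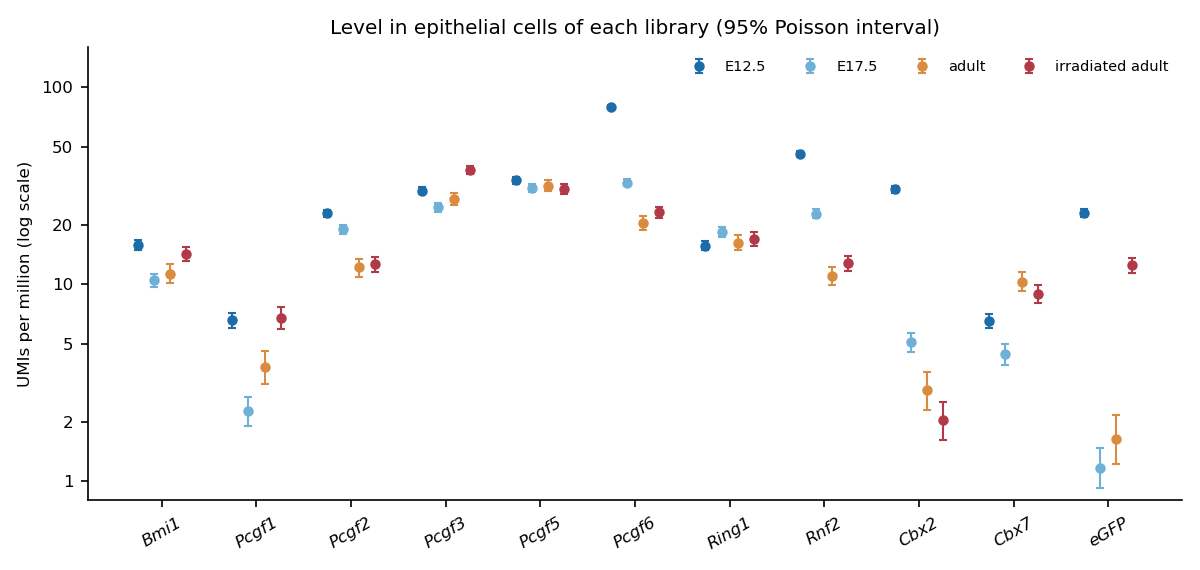
Level of each member and of the eGFP reporter in epithelial cells of the 4 libraries, in CPM on a log axis, with exact Poisson 95% intervals. Cbx2 goes from 30.4 at E12.5 to 2.04 in the irradiated adult, Pcgf6 and Rnf2 are also highest at E12.5, and Pcgf5 stays between 30.4 and 33.6.

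Among the PCGF genes, Bmi1 stood at 15.8 CPM at E12.5, 10.5 at E17.5, 11.3 in adults and 14.2 in irradiated adults. The E17.5 level was 0.661 of the E12.5 level (0.600 to 0.726), a log2 ratio of -0.55 that did not pass the 2-fold rule. This difference depended on how cells were weighted. Deep cells count for more in a summed level, and at E17.5 the enteroendocrine-like cells, where Bmi1 was highest, had a median of 7344 UMIs against 24820 in the other epithelial cells. When each cell counted equally, mean Bmi1 was 17.2 CPM at E12.5 and 14.3 at E17.5. With every cell thinned to 2000 UMIs it was 17.4 and 17.1 CPM. Within the cells without a lineage, those in clusters that met no lineage's naming rule, Bmi1 was 15.8 CPM at E12.5 and 9.45 at E17.5.

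Pcgf6, the PCGF subunit of the variant complex with MGA and L3MBTL2, was the most abundant PCGF transcript by UMIs at E12.5. It measured 79.6 CPM at E12.5, 32.8 at E17.5, 20.4 in adults and 23.2 in irradiated adults. E12.5 was thus 2.43-fold above E17.5 (2.31 to 2.55). Pcgf1, of the BCOR and KDM2B complex, was at 6.56, 2.27, 3.8 and 6.76 CPM in the same order, and its E12.5 level was 2.89-fold (2.40 to 3.51) that of E17.5. The irradiated adult was the library nearest to E12.5 for Pcgf1. Pcgf2, the closest paralogue of Bmi1, went from 22.9 and 19.0 CPM in the embryo to 12.2 and 12.6 in the adult libraries. In enteroendocrine-like cells alone, Pcgf2 was 22.3 CPM at E17.5 and 19.0 in the adult (ratio 0.710 to 1.03). Pcgf6 there was 36.25 and 27.6 CPM (0.656 to 0.882). Pcgf3 and Pcgf5 act in one kind of variant complex. Pcgf5 varied least of the PCGF genes, between 30.4 and 33.6 CPM, and Pcgf3 lay between 24.5 and 38.0, highest after irradiation.

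The make-up of the PCGF family differed between stages. Pcgf6 held 42.3% of the family's UMIs at E12.5 (41.5 to 43.0), 27.4% at E17.5, 19.2% in adults and 18.5% in irradiated adults. The share of Pcgf5 went the other way, from 17.9% at E12.5 to 25.7% at E17.5 and 29.7% in the adult, but was 24.3% in the irradiated adult. The level of Pcgf5 in CPM varied little over the same libraries. Bmi1 was a small part of the family, at 8.41% (7.98 to 8.86), 8.73%, 10.6% and 11.3% (10.5 to 12.3) in the same order, and the first and last intervals did not overlap. Within E17.5 its share ran from 6.27% in goblet-like to 13.6% in enteroendocrine-like cells. In enteroendocrine-like cells alone the Bmi1 share did not rise from E17.5 (12.03 to 15.38) to the adult, at 11.11% (9.703 to 12.65). These 2 intervals overlapped, and the share after irradiation was 12.05%. The Bmi1 level in this class was 22.1 CPM at E17.5 and 15.83 in the adult (ratio 0.590 to 0.869). The libraries differ in cell make-up, and its part in the pooled shares was not tested. Bmi1 is also the member whose locus carries the reporter allele, and the part of that allele in its UMIs and shares was not tested.

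The catalytic subunits divided in the same manner. Rnf2 was at 46.1 CPM at E12.5, 22.8 at E17.5, 11.0 in adults and 12.8 in irradiated adults. Each of the first 2 steps was close to 2-fold, at 2.02-fold lower (1.90 to 2.15) from E12.5 to E17.5 and 2.06-fold lower (1.83 to 2.34) from E17.5 to the adult. Both stopped just short of the 2-fold rule, with log2 ratios of -0.99 and -0.98. Ring1 was at 15.7, 18.4, 16.3 and 17 CPM and showed no such slope. Rnf2 therefore gave 74.5% of the pair's UMIs at E12.5 (73.3 to 75.7) and 55.3% at E17.5, while in the adult Ring1 was the larger part at 59.6% (56.1 to 63.0) and in the irradiated adult at 57.0%.

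Of the chromodomain subunits, Cbx2 differed most between stages of all 10 members. Its level was 30.4 CPM at E12.5, 5.08 at E17.5, 2.89 in adults and 2.04 in irradiated adults. The E12.5 level was 5.98-fold that of E17.5 (5.32 to 6.74). Cbx7, which is known from embryonic stem cells and differentiated tissues, ran otherwise: 6.53, 4.41, 10.3 and 8.97 CPM. From E17.5 to the adult Cbx7 was 2.34-fold higher (1.98 to 2.77, log2 ratio 1.07) and was the only member past 2-fold in that comparison, where 12.6% of 15985 genes were as much higher and 12.7% lower. The adult and E17.5 libraries differ in cell make-up, which cannot be told apart from stage in the pooled levels of any member. In enteroendocrine-like cells alone, Cbx2 was 4.07 CPM at E17.5 and 3.92 in the adult (ratio 0.626 to 1.49). Rnf2 there was 25.8 and 15.2 CPM (0.487 to 0.712). Of the UMIs of Cbx2 and Cbx7 together, Cbx2 held 82.3% at E12.5, 53.6% at E17.5 and 21.9% in adults.

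**Figure D2:**
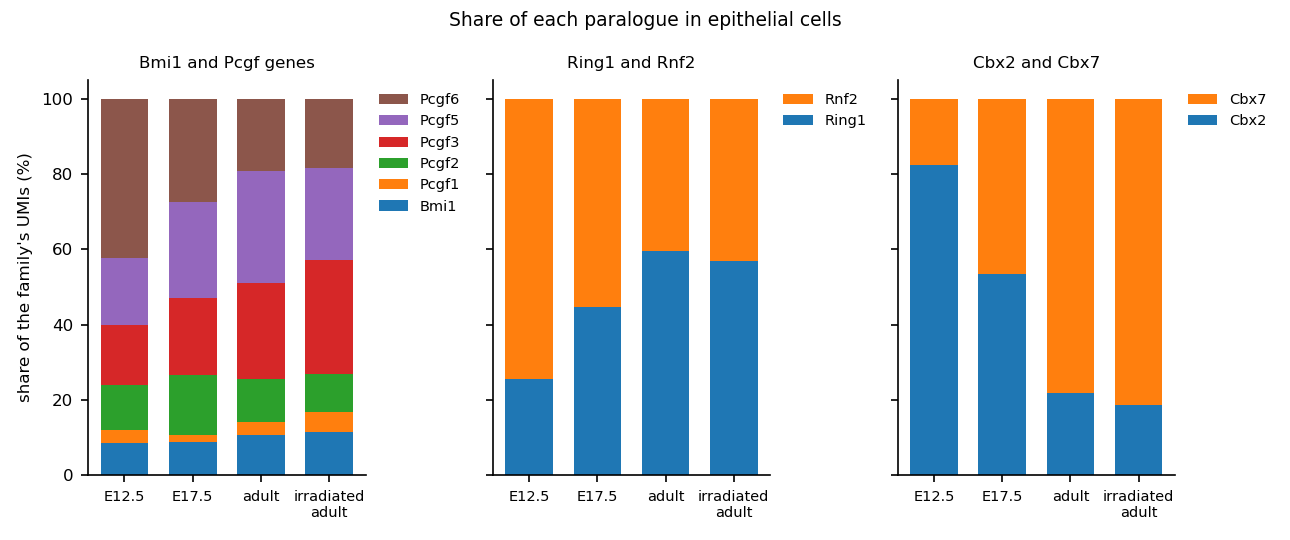
Share of each paralogue in the UMIs of its family (%), in epithelial cells of each library, for the PCGF genes, Ring1 with Rnf2, and Cbx2 with Cbx7. The Pcgf6 part shrinks from 42.3% at E12.5 to 19.2% in the adult, Rnf2 from 74.5% to 40.4%, and Cbx2 from 82.3% to 21.9%.

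The embryonic differences were also present among the cells without a lineage. Their clusters met no lineage's naming rule but can still show lineage markers. Olfm4 is in the stem marker list. Neurog3, of the enteroendocrine list, is second among the leading genes of E17.5 clusters of 120 and 72 cells. These cells are not of 1 kind: most E12.5 clusters are led by Osr2, Shh or Lgals2, and those of E17.5 by Olfm4, Pigr or Spp1. Among these (3202 at E12.5, 1183 at E17.5), Pcgf1, Pcgf6, Rnf2 and Cbx2 were at least 2-fold lower at E17.5 and no member was as much higher, beside 15.6% of 15780 genes lower and 9.98% higher. Cbx2 there was 30.9 CPM at E12.5 and 6.33 at E17.5. Rnf2, at 45.9 and 21.9 CPM, had a log2 ratio of -1.03. It went to -0.98 when mitochondrial, ribosomal protein and defensin genes were left out of the total. Levels at E12.5 differed little between cells above and below a cut on G2/M genes. With cells thinned to 2000 UMIs, 1888 had at least 3 UMIs of 15 G2/M genes, called mitotic here, and 1254 had fewer. Cells below the cut can also be cycling, so this does not compare dividing with resting cells. From unthinned counts, the members' ratios of mitotic over other cells ran from 0.942 to 1.11. Pcgf6 was 1.10-fold higher in the mitotic cells (1.04 to 1.16). At E17.5 the other epithelial cells gave 1.26 (1.13 to 1.40) for Pcgf5 and 0.793 (0.703 to 0.894) for Pcgf3. The adult had 97 mitotic cells among its other epithelial cells, and in them Pcgf6 was 3.12-fold higher (2.41 to 4.03) and Cbx7 2.52-fold higher (1.67 to 3.82). The adult cluster led by Mki67 was also the deepest of that library, with a median of 47005 UMIs per cell. Of the 1373 other epithelial cells of the adult, 975 were tuft-like, with 5.84 CPM of Pcgf6 and 14 UMIs of Cbx7. The parts of depth and of this class difference were not tested.

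A further 24 genes of PRC1 were read for context. From E12.5 to E17.5, 7 of the 24 were at least 2-fold lower and 0 higher, with a median log2 ratio of -0.692. Over all genes 14.6% were lower and 13.1% higher, with a median of -0.152. The 7 were Phc1 and Phc2, polyhomeotic subunits of the canonical complex (log2 ratios -2.14 and -1.26), the Pcgf1 partner Kdm2b (-1.42), the Pcgf3 and Pcgf5 partners Auts2 and Fbrsl1 (-1.44 and -1.16), the Pcgf6 partner E2f6 (-1.10) and Hdac2 (-1.16). Both canonical and variant complexes were thus represented. From E17.5 to the adult, Yaf2 (-1.34) and Wdr5 (-1.08) were lower, 2 of 24 beside 12.7% of all genes. Of 3 genes known as targets or outputs, Cdkn2a, the classical Bmi1 target, was scarce throughout: 0.863 CPM at E12.5, 1.51 at E17.5, 1 UMI in adults and 0 UMIs in irradiated adults, where the limit of 3 UMIs allows up to 0.0774 CPM. Its neighbour Cdkn2b was at 2.25, 44.7, 44.1 and 48.2 CPM, 19.9-fold higher at E17.5 than at E12.5 (17.1 to 23.2).

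Over all epithelial cells, all 10 members in the irradiated adult were within 2-fold of the adult. By the rule, 2.62% of 15163 genes were higher after irradiation and 4.62% lower. The member with the largest ratio was Pcgf1, 1.78-fold higher (1.42 to 2.24). Pcgf3 was 1.40-fold higher (1.29 to 1.53) and Bmi1 1.25-fold (1.09 to 1.44). In enteroendocrine-like cells alone again none of the 10 passed, beside 1.44% of 14076 genes higher and 2.82% lower. Pcgf1 there was 5.33 CPM in the adult and 9.90 after irradiation. In tuft-like cells Cbx7 passed (log2 ratio 1.68), from 14 UMIs in the adult and 18 after irradiation. Over all epithelial cells, Cdkn1a, the p21 cell cycle inhibitor and a p53 target, was 370 CPM in the adult and 876 after irradiation. It was thus 2.37-fold higher (2.31 to 2.42), but it did not pass the 2-fold rule in enteroendocrine-like cells. Of the 24 other PRC1 genes only Csnk2a1 passed over all epithelial cells, with a log2 ratio of -1.08, and none in enteroendocrine-like cells. Depth, mitochondrial share and cell make-up also differ between these 2 libraries, and their part in these ratios was not tested.

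By summed CPM, the eGFP transcript ranked the 4 libraries in the same order as Bmi1 but over a far wider range. With the edgeR or DESeq2 scaling factors, Bmi1 was by value highest in the irradiated adult instead. The eGFP transcript stood at 22.95 CPM at E12.5, 1.17 at E17.5, 1.65 in adults and 12.5 in irradiated adults. The irradiated adult exceeded the adult 7.58-fold (5.64 to 10.4) for eGFP, where Bmi1 differed 1.25-fold. The same held within the enteroendocrine-like cells, at 1.88 and 16.5 CPM of eGFP. After thinning to 2000 UMIs, 5.0% of cells had an eGFP UMI at E12.5, 0.421% at E17.5, 0.271% in adults and 3.02% after irradiation (unthinned 33.5%, 2.10%, 1.36% and 13.8%). For Bmi1 the thinned shares were 3.45%, 3.28%, 2.61% and 3.53% (unthinned 24.9%, 16.3%, 8.26% and 15.6%). By value of the thinned shares the orders differed, with Bmi1 highest in the irradiated adult and eGFP at E12.5. Between 151 and 647 shallower cells per library were left out, and no class here is known to lack Bmi1, so a background share could not be set. At E12.5 the thinned Bmi1 level was 17.2 CPM in cells with an eGFP UMI (6 UMIs, 6.33 to 37.5) and 17.4 CPM in cells without, too few UMIs to set the 2 apart. Unthinned, the values were 15.5 CPM (14.3 to 16.8) and 16.0 CPM (14.8 to 17.2), with overlapping intervals. In the irradiated adult the thinned values were 39.0 CPM (6 UMIs, 14.3 to 84.8) and 17.2 CPM, and the unthinned ones 11.9 and 14.9 CPM.

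Of the named epithelial classes within a library, Bmi1 was highest in enteroendocrine-like and, where present, tuft-like cells. At E17.5 it was 22.1 CPM in enteroendocrine-like cells, 9.45 in cells without a lineage, 6.80 in goblet-like cells (a cluster led by Defa24 and Defa17, defensin genes of Paneth cells) and 6.13 in enterocyte-like cells. The enteroendocrine-like interval (19.3 to 25.2) did not overlap the others, and the goblet-like and enterocyte-like intervals overlapped each other. In the adult Bmi1 was 17.8 CPM in tuft-like cells and 15.8 in enteroendocrine-like cells, which overlapped, then 5.73 in a cycling cluster with stem markers led by Mki67, 3.11 in Paneth-like and 1.96 in enterocyte-like cells. In the irradiated adult the same pair led the named classes, with 20.2 CPM in enteroendocrine-like and 17.9 in tuft-like cells, against 6.36 in enterocyte-like (1 cluster led by Ccnd1, with Ube2c and Areg beside Apoa4 among its leading genes), 3.30 in goblet-like and 2.85 in Paneth-like cells. Its 434 unnamed cells were at 21.3 CPM, above both by value. Among them a cluster of 192 cells with both tuft and enteroendocrine markers stood at 22.7 CPM.

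The total against which a level is read differs between classes. UMIs outside the mitochondrial, ribosomal protein and defensin genes made up 29.0% of the total in adult Paneth-like cells and 87.8% in adult enteroendocrine-like cells. With these 3 gene groups left out of the total, a scale added after the data were seen, Bmi1 in Paneth-like cells was 10.7 CPM in the adult and 10.1 after irradiation, against 18.0 and 23.1 in enteroendocrine-like cells.

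**Figure D3:**
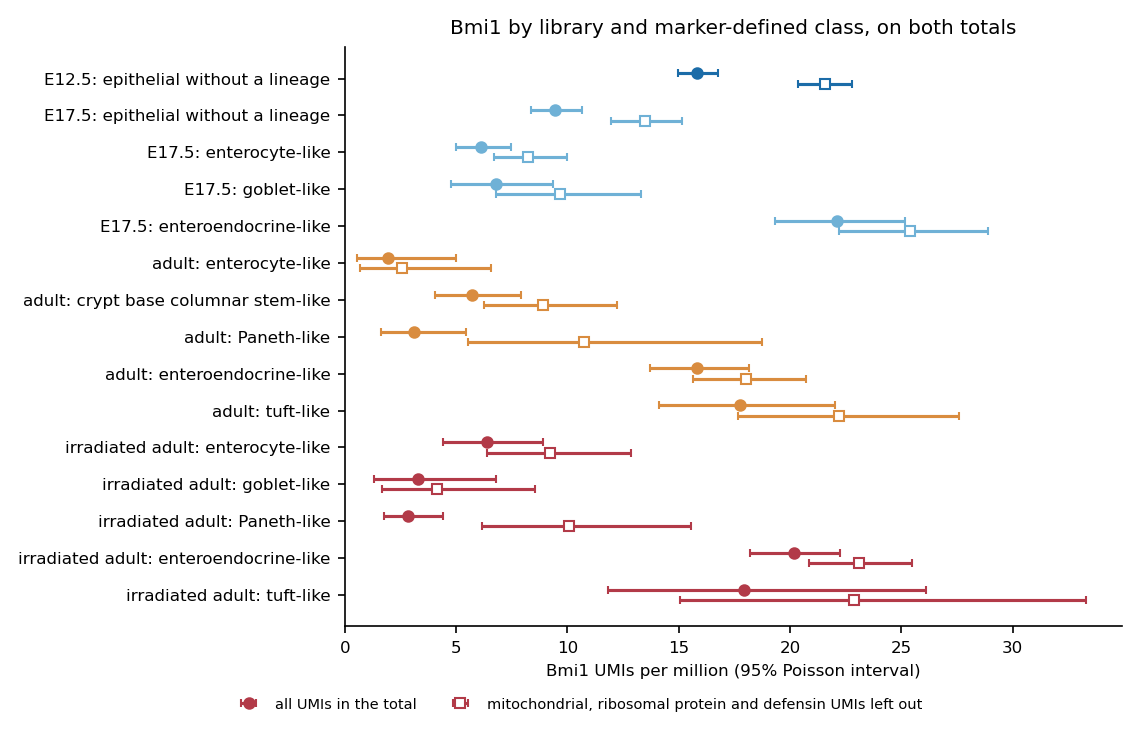
Bmi1 level (CPM) in each library and class of at least 50 cells, with exact Poisson 95% intervals, over all UMIs (filled) and with mitochondrial, ribosomal protein and defensin UMIs left out of the total (open). Within E17.5 and each adult library, enteroendocrine-like and tuft-like cells are furthest right of the classes drawn on both scales, and the 2 scales lie furthest apart in Paneth-like cells (3.11 and 10.7 in the adult).

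Set against all other epithelial cells of the library, enteroendocrine-like cells at E17.5 had 1 member at least 2-fold higher, and it was Bmi1: 22.1 against 8.15 CPM, 2.71-fold (2.30 to 3.19, log2 ratio 1.34). Of 15022 genes, 21.6% were as much higher. Bmi1 also passed on the scale without the 3 gene groups, at a log2 ratio of 1.09. In the adult, Pcgf2 (19.0 against 7.005 CPM) and Cbx7 (16.1 against 5.95 CPM) passed, beside 28.9% of 14083 genes, and in the irradiated adult Bmi1, Pcgf1, Pcgf2, Pcgf6, Rnf2 and Cbx7 passed, beside 27.5% of 14389. On the scale without the 3 gene groups 0 members passed in either library, beside 20.1% and 13% of genes, and 18.5% were higher at E17.5. The Bmi1 log2 ratio was 0.91 in adults and 1.20 in irradiated adults over all UMIs, and 0.46 and 0.67 on that scale. The comparator includes the tuft-like cells, where Bmi1 was also high. With tuft-like and unnamed cells left out of it, a choice made after the data were seen, Bmi1 passed on that scale too: 18.0 against 7.74 CPM in adults (2.33-fold, 1.71 to 3.22) and 23.1 against 8.28 in irradiated adults (2.79-fold, 2.12 to 3.71). The shares of all genes were then 23.2% and 22.9%, and 19.3% at E17.5, where Bmi1 passed as well (25.4 against 11.3 CPM). Cbx2 also passed after irradiation, from 5 UMIs in the comparator. Clusters were made from these same cells and genes, so these ratios describe the classes and test nothing.

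Other CBX genes stood further apart than the members did. Cbx6 was 62.6 CPM in enteroendocrine-like and 15.6 in the remaining epithelial cells at E17.5, 74.7 and 9.60 in adults, and 72.2 and 9.85 after irradiation. Cbx8 and Rybp were likewise past 2-fold in all 3 libraries on both scales. Auts2, a partner of Pcgf3 and Pcgf5, was 5.75-fold higher in the adult (5.21 to 6.35). In all, 5 of the 24 other PRC1 genes were past 2-fold at E17.5, 10 in the adult and 10 after irradiation, or 5, 6 and 4 on the scale without the 3 gene groups. As shares of the list these stand beside 21.6%, 28.9% and 27.5% of all genes, and 5 of 24 is no more than that share at E17.5.

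Tuft-like cells were near enteroendocrine-like cells in Bmi1, at a ratio of 1.12 in the adult (0.857 to 1.46), but had far less Pcgf6. Pcgf6 was 5.84 CPM (27 UMIs) in adult tuft-like and 27.6 in adult enteroendocrine-like cells, 4.72-fold lower (3.19 to 7.26), and after irradiation 4.65 (7 UMIs) and 32.1, 6.90-fold lower (3.33 to 17.2). Pcgf5 was 43.3 CPM in tuft-like and 38.2 in enteroendocrine-like cells of the adult (ratio 0.958 to 1.34), and 58.5 and 38.0 after irradiation (1.22 to 1.92). Beside enteroendocrine-like cells, the PCGF family of the tuft-like class was thus weighted to Pcgf5 and away from Pcgf6. In the adult, Pcgf6 held 5.625% of its UMIs and Pcgf5 41.67%. This was not particular to tuft-like cells. The 59 adult enterocyte-like cells had 10.0% (10 UMIs) and 37.0%, though those of the irradiated adult had 23.14% and 21.24%. By the 2-fold rule Pcgf1, Pcgf2, Pcgf6, Cbx2 and Cbx7 were lower in adult tuft-like cells, beside 33.9% of 13586 genes, and Pcgf6, Rnf2 and Cbx2 in irradiated ones, beside 30.3% of 13860. The same 5 passed in the adult on the scale without the 3 gene groups (31.8% of all genes), and Pcgf6 and Cbx2 after irradiation (28.6%). Cbx2 rests on 2 and 1 UMIs in the tuft-like cells. Cbx6 was 6.06 CPM in adult tuft-like cells against 74.7 in enteroendocrine-like cells.

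**Figure D4:**
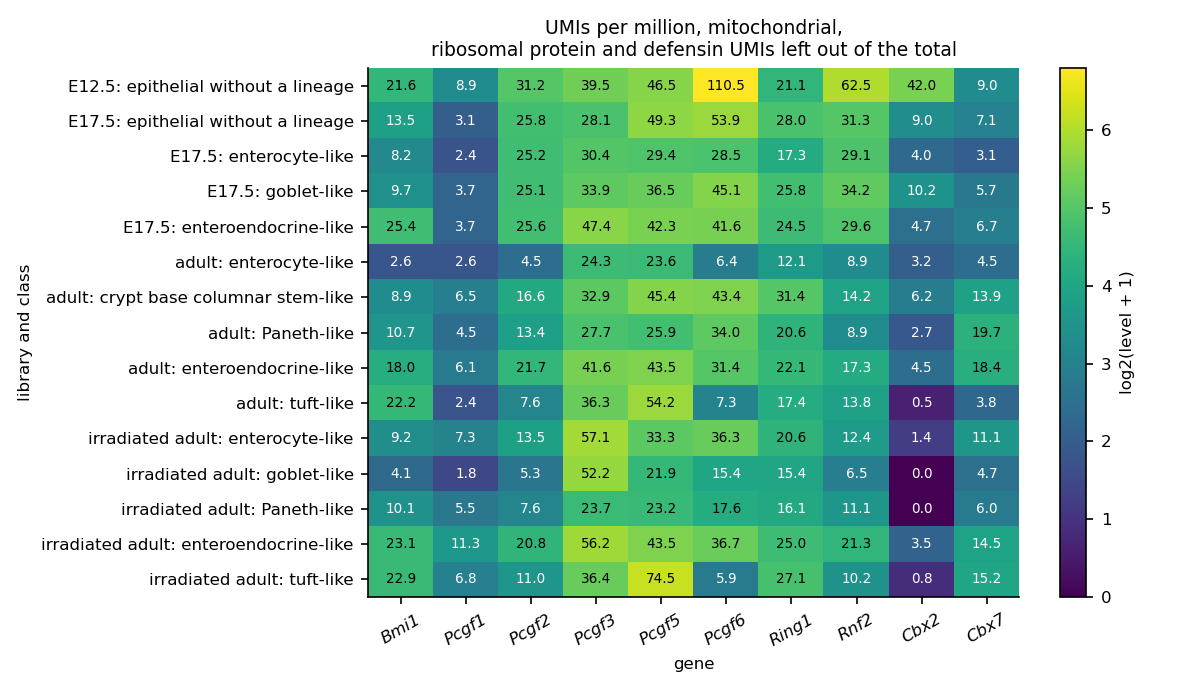
Members by library and class, in CPM with mitochondrial, ribosomal protein and defensin UMIs left out of the total; each cell prints the value, and colour is log2(value + 1). Of the rows drawn, Pcgf6, Rnf2 and Cbx2 are highest in that of E12.5 (110, 62.5 and 42.0). Both tuft-like rows combine high Pcgf5 (54.2 and 74.5) with low Pcgf6 (7.32 and 5.93). Pcgf6 is also low in the adult enterocyte-like row (6.39, from 10 UMIs).

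The unnamed groups and the cells outside the gut epithelium are not drawn there. On that scale Rnf2 was 82.0 CPM in the 119 mesenchymal-like cells of E17.5 (60.3 to 109, 47 UMIs), above its value in the E12.5 cells without a lineage.

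Between E17.5 and adult enteroendocrine-like cells Cbx7 was the only member past 2-fold, at 5.82 and 16.1 CPM (2.78-fold higher, 2.07 to 3.77), beside 11.5% of 14032 genes higher and 9.26% lower. Much of this sat in 1 cluster of 897 shallow cells (median 2323 UMIs) led by Pclo, where Cbx7 was 37.9 CPM. Without that cluster the adult value was 11.6 CPM, the ratio was 1.99-fold (1.45 to 2.76) and the call was lost, with a log2 ratio of 0.88. In the irradiated adult the 2 shallow clusters with Pclo among their leading genes were again highest for Cbx7, at 32.1 and 33.1 CPM (median depths 2617.5 and 2221.5 UMIs). The part of depth in these levels was not tested. Of the other PRC1 genes, Phc3 was higher in the adult (log2 ratio 1.12) and Yaf2 lower (-1.58).

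**Figure D5:**
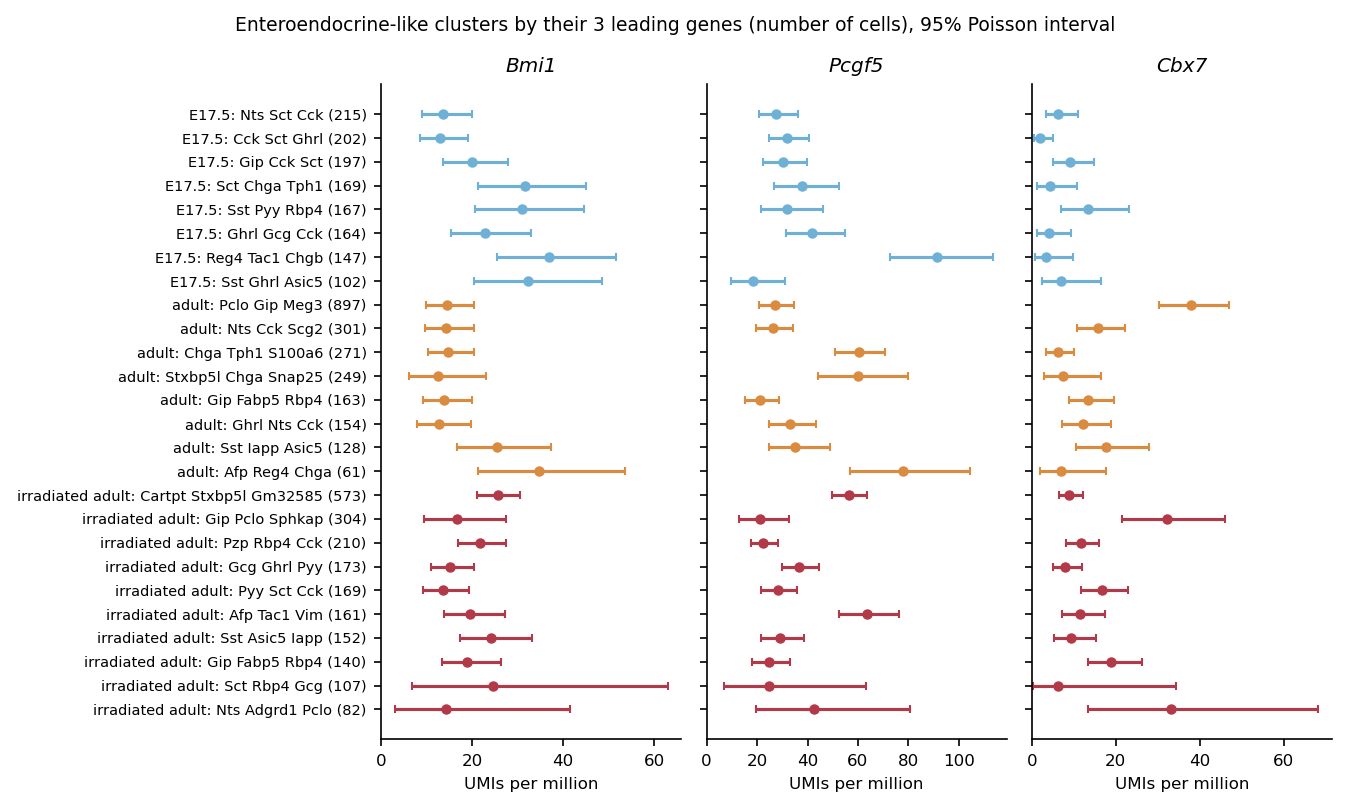
Bmi1, Pcgf5 and Cbx7 in each enteroendocrine-like cluster, named by its 3 leading genes and number of cells, in CPM with exact Poisson 95% intervals. Pcgf5 is highest in clusters led by Reg4, Tac1, Afp, Chga or Cartpt, and Cbx7 in the shallow clusters with Pclo among their leading genes.

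Bmi1 and Pcgf5 also differed among enteroendocrine-like clusters. At E17.5 Bmi1 ran from 12.9 CPM in the cluster led by Cck, Sct and Ghrl (8.46 to 19.0) to 36.8 in the one led by Reg4, Tac1 and Chgb (25.4 to 51.7), genes of serotonin-making enterochromaffin cells. The 2 somatostatin-led clusters were at 30.9 and 32.3 CPM. In the adult the highest was again a Reg4 cluster with Afp and Chga, at 34.7 CPM (21.2 to 53.5), and the somatostatin cluster followed at 25.4. The same pair of Reg4 clusters held the highest Pcgf5, at 91.5 CPM at E17.5 (72.8 to 114) and 78.0 in the adult (56.9 to 104). In the adult the Chga and Tph1 cluster (60.3) and the Stxbp5l and Chga cluster (60.1) came next for Pcgf5, and after irradiation the Afp and Tac1 cluster (63.7) and the Cartpt cluster (56.3). Clusters with Gip as first gene were low, from 21.0 to 30.1 CPM of Pcgf5 over the 3 libraries. An exception was the E17.5 cluster led by Sct, Chga and Tph1, which had 37.9 CPM of Pcgf5 but 31.6 of Bmi1. At E17.5 this cluster, the Reg4 cluster and the 2 somatostatin-led clusters were the shallowest of the class (medians of 5262 to 7080 UMIs). The Cck, Sct and Ghrl cluster was the deepest, at 9863. In the adult the Reg4 cluster had a median of 9386, where the clusters ran from 2323 to 13510. The part of depth in these levels was not tested.

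Across 18 units of a library and a class, with at least 100 cells each, genes among 12573 whose log2(CPM + 1) closely resembled that of Bmi1 included Msi2 (Pearson r 0.916), Dhx40 (0.908), Klc2 (0.902) and Rrm2b (0.899). The units include the islet-like, pancreatic acinar-like, mesenchymal-like and smooth muscle-like cells of E17.5 and the unnamed cells of E12.5 and of the irradiated adult. Msi2 is an RNA-binding protein of stem and progenitor cells, and Rrm2b a p53-induced ribonucleotide reductase subunit. Of the members, Pcgf3 was nearest to Bmi1 (0.743), then Pcgf5 (0.659) and Ring1 (0.526), while Pcgf6 (0.162) and Cbx2 (0.133) were furthest. The units share libraries, depth and totals, so these values are descriptions over 18 points and carry no p.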

How the data were processed

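RNA was measured by droplet sequencing with the 10x Chromium 3' version 3 kit, per the labels' protocols. The authors deposited raw UMI counts per gene and barcode, made with Cell Ranger 3.1.0 on mm10, per the submitters' processing notes. The 10 members, the gene lists and the questions were chosen with earlier results of these data known. All values were computed from the deposited counts.

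Kept cells had at least 500 genes and at most 20% mitochondrial UMIs. Putative doublets were removed by Scrublet rank at 0.8% per 1000 barcodes (153 to 193 cells a library), because its automatic threshold marked at most 8. Each library was clustered on its own (scanpy 1.11.5, 2000 variable genes, 30 components, 20 neighbours, Leiden resolution 1, leidenalg 0.10.2). Clusters took the class of the marker list with the highest mean score, if at least 0.5 with 3 detected markers, and clusters with conflicting leading genes or low depth stayed unnamed. These thresholds were set after the clusters were seen. Other epithelial cells are all epithelial cells outside the enteroendocrine-like class.

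Levels are summed UMIs per 1000000 UMIs. A gene counts as past 2-fold when log2 of (CPM + 1) over (CPM + 1) is at least 1 or at most -1, with at least 10 UMIs in either group. The pseudocount of 1 CPM understates ratios of low genes. With 1 library per group no test, p-value or standard error was computed, and it is not given whether a library pools animals. Every member is named. Other PRC1 genes are named when past 2-fold with at least 50 UMIs, up to 12 a comparison, and of the genes most like Bmi1 the 5 with the highest r among those reaching 10 CPM. Some genes that these rules name are not reported here. Ratios and their intervals were tested on simulated counts. For E17.5 over E12.5 the direction was recovered for 100% of 200 changed genes of 16750, and 95% of intervals held the true ratio. The counts were drawn from the Poisson model that the intervals assume. Changed genes had at least 200 UMIs expected before the change. The simulation thus checks the computation, and not genes with few UMIs or the spread between libraries. Scaling factors came from edgeR 4.0.16 and DESeq2 1.42.0 (R 4.3.3), used as alternatives without their tests. Promoter sequences are from RefSeq (GRCm38.p6), the same assembly as mm10, and gene positions from GENCODE M21.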

Additional observations from a re-analysis of the deposited data

Results flagged for a closer look

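Of the members, 2 had irradiated to adult ratios over all UMIs that pointed opposite ways in different cell classes. Their counting intervals lay on either side of no difference. Pcgf5 had a log2 ratio of 0.42 in tuft-like cells (43.3 to 58.5 CPM) and -0.22 in other epithelial cells (26.8 to 22.8 CPM), a group that includes the tuft-like cells. These were 975 of 1373 such cells in the adult and 250 of 960 after irradiation. Without mitochondrial, ribosomal protein and defensin genes in the total, Pcgf5 in other epithelial cells was 43.17 CPM (39.29 to 47.32) and 39.31 (35.72 to 43.16). Those intervals overlapped. In tuft-like cells it was 54.21 and 74.55 CPM on that scale. Cbx7 had 1.68 in tuft-like cells, past the 2-fold rule, from 14 UMIs in the adult to 18 after irradiation, and -0.33 in enteroendocrine-like cells. The Cbx7 ratio in enteroendocrine-like cells was -0.01 without the clusters that have Pclo among their leading genes. There was 1 library per group, and the difference between the classes was not tested in either case.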

How the results depend on the processing

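No paired analysis was possible because each group has 1 library and the labels give no replicate numbers. The count of members past 2-fold from E12.5 to E17.5 was 3 and ranged from 2 to 4 over the alternatives, and it was 0 between the irradiated and the unirradiated adult in all of them. From E17.5 to the adult the count of 1 (Cbx7) became 2 with a pseudocount of 0.1 CPM or with every deposited barcode (Cbx7 and Rnf2), and 0 with a pseudocount of 10 CPM or with at least 1000 genes and at most 10% mitochondrial UMIs. Between enteroendocrine-like and other epithelial cells, a pseudocount of 10 CPM gave 0 at all 3 of E17.5, adult and irradiated adult, in place of 1, 2 and 6. The mean of each cell's CPM gave 4 in the adult and 3 after irradiation. Leaving tuft-like and unnamed clusters out of the other epithelial cells gave 5 and 10. The share of all genes past 2-fold was not computed for either setting. After irradiation, UMIs outside mitochondrial, ribosomal protein and defensin genes made up 50.8% of that comparator's total. The enteroendocrine-like cells had 87.3%. Of the alternatives chosen after seeing the data, leaving mitochondrial, ribosomal protein and defensin genes out of the total gave 0 in both adult libraries and 1 at E17.5. With tuft-like and unnamed clusters left out of the comparator as well, it gave 1 in the adult (Bmi1), 2 after irradiation (Bmi1 and Cbx2) and 1 at E17.5. Leaving out the Pclo-led clusters took the count in enteroendocrine-like cells from E17.5 to the adult from 1 to 0. No log2 ratio changed sign past the rule. Of 350 ratios between libraries under the alternatives 343 kept their side of the rule, and of 300 between classes 259 did, the alternatives chosen after seeing the data included. Leaving the 3 gene groups out of the total ended 8 of the class calls, 2 in the adult and 6 after irradiation. Member levels at clustering resolutions of 0.5 and 2 stayed within their intervals in all 60 enteroendocrine-like and 40 tuft-like values. Levels over all epithelial cells were less stable: 222 of 320 values under the alternatives stayed within their intervals and 98 did not. Weighting all cells equally moved 31 of 40 levels, DESeq2 factors 11 and edgeR factors 9. Leaving the 3 gene groups out of the total moved all 40. No other setting moved more than 3. Shares of cells with a UMI moved with the thinning depth in 116 of 120 values. Genes with few UMIs, such as Cbx2 and Cbx7 in tuft-like cells, are limited by depth.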
